A study of Mus musculus with 12 samples.

Results

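A set of 95 genes had higher normalised expression in every regulatory T cell (Treg) library titled as lacking estrogen receptor beta (ERb, gene Esr2) than in any library titled wild type. The genes were chosen from the measured values: a row of the log2 table had to average at least 1 log2 CPM, the log2 of counts scaled to library size, over the 12 libraries, and its lowest value in the 6 knockout libraries had to exceed its highest value in the 6 wild-type libraries. Of 24584 rows, 11031 reached that level, and 100 of these met the separation rule. The 5 symbols Ly6c1, Ly6c2, H2-T10, Lef1 and Cd37 were then left out by a fixed list of names and prefixes, Cd37 only because it begins with the letters of the Cd3 prefix. Since the rule used knockout against wild type, the values of the 95 genes in that contrast are a description, and nothing is read from how many of them a test of it calls.

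The Tregs came from mesenteric lymph nodes, were sorted by flow cytometry on CD4+CD25hiCD127lo singlets and were profiled by RNA-seq. The mice were of the SAMP/YitFC line, in which ileitis arises spontaneously. The 4 titled groups were WT male, WT female, ERb-KO male and ERb-KO female, with 3 libraries each, and all shared the SAMP/YitFC background and the same sort. The knockout is described as lacking Esr2 throughout the body, not in Tregs alone. The sources used here give neither the age of the mice nor the part of Esr2 that was removed. Nor do they tell if the libraries are from different mice, so a p-value here covers the spread among these libraries alone, which may be technical.

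ERb is a nuclear receptor that, once bound by estrogen, acts on genes mainly through estrogen response elements, in which a pair of AGGTCA arms face each other across a short spacer. Tregs hold back other T cells under the control of the transcription factor Foxp3. Resting Tregs circulate through lymph nodes and leave them by way of the sphingosine receptor S1PR1, while activated Tregs lower this receptor. A sorted T-cell fraction can also carry RNA of B cells, dendritic cells or macrophages of the node.

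Counts assigned to genes ranged from 13439554 to 16748380 per WT library and from 10200506 to 14786367 per KO library, with overlap between the titles. Foxp3 was present in every library, at 583 to 930 CPM, as were Il2ra, which encodes CD25, at 522 to 1008 CPM and Cd4 at 465 to 744 CPM. Esr2 itself went against the titles: its counts were 0, 1, 14, 0, 133 and 159 in the WT libraries and 8, 2, 95, 161, 94 and 128 in the KO libraries, each in the order male 1 to 3, female 1 to 3. The files hold no counts by exon, so the deletion itself was not checked. Transcripts of the sex chromosomes went against the titled sex in 4 libraries, WT female 2, KO male 1, KO male 2 and KO female 1. WT and KO, male and female therefore stand for the titles throughout. The WT male libraries called 2 and 3 here both carry the number 2 in their titles, and they were kept as separate libraries. With these libraries summed into 1, the fits still called 0 of the 95 in every contrast or slope that the rule did not use directly.

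Promoter windows of the genes were read for the ERb motif, because the titled groups differ in that receptor. RefSeq windows, 250 bases before to 50 bases after a transcription start on GRCm38.p6, were found for 72 of the 95 genes, 100 windows in all. The whole estrogen response element, GGTCA followed by 3 bases of any kind and TGACC, was in 0 of these 100 windows, in 0 of the 11035 windows of all rows at or above the level minimum, and in 23 of the 32851 windows of the whole table (0.07%). The single arm AGGTCA, searched on both strands, was in 12% of the windows of the 95 genes, 12.4% of those of all rows at that level and 16.3% of all windows. Its 11 positions lay in 11 genes and are printed 5′ to 3′ on the gene's strand, 30 bases each, with the match in capitals as AGGTCA or its reverse complement TGACCT.
Efemp2: ggccaagcatcaAGGTCAgtggcctaagga
Elovl1: tcctctaggcatTGACCTgtggcctggacc
Fam193b: gagtgtgccctcTGACCTgttggcagcagg
Lass2: cgtctatctatcTGACCTctgagttcatcc
Mau2: tgtagctctgacTGACCTagaacttcatat
Miip: gtccgcgtgaaaAGGTCAaagttgccggag
Phyhd1: ggcccacctccaAGGTCAgaaatgggggag
Slc7a7: ctcctcccttctTGACCTgacttaaatccg
Sox4: taaattggaatgAGGTCAgatttggagctt
Tmc6: gaacgagtcacgTGACCTttggggcccggt
Wdr34: gcgaacccgctaAGGTCAcgttccagggcg
The printed stretches lie at chr19:5474465-5474494 (plus strand, Efemp2), chr4:118429594-118429623 (plus strand, Elovl1), chr13:55571127-55571156 (minus strand, Fam193b), chr3:95318621-95318650 (plus strand, Lass2), chr8:70029468-70029497 (minus strand, Mau2), chr4:147868842-147868871 (minus strand, Miip), chr2:30266675-30266704 (plus strand, Phyhd1), chr14:54410224-54410253 (minus strand, Slc7a7), chr13:28953844-28953873 (minus strand, Sox4), chr11:117780674-117780703 (minus strand, Tmc6), chr2:30048897-30048926 (minus strand, Wdr34). The match lay nearest to the start site in Tmc6 and farthest upstream in Efemp2. A match describes these letters and not a bound site. Other motifs were in few windows: the octamer ATGCAAAT in 1.0% of windows (1.18% of all rows at that level), the EBF1 motif (TCCC, 2 bases of any kind, GGGA) in 2.0%, 2 windows (0.92%), and the PU.1 motif GAGGAAGT in 4.0% (3.30%), all on both strands. EBF1 and the octamer factors act in B cells and PU.1 in myeloid cells and B cells.

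The upstream windows of Emid1 and Sema4a are shown for their differences. Emid1 had the largest of the set and Sema4a the largest among the genes grouped here under T-cell surface and signalling. For each gene the window of the start site farthest upstream is printed, with CG dinucleotides in capitals.
Emid1: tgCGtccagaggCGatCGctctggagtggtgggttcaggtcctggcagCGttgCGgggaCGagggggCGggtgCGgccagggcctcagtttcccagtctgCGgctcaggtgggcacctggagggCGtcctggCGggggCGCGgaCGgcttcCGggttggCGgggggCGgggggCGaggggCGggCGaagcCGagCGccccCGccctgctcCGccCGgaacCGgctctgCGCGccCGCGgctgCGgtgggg
Sema4a: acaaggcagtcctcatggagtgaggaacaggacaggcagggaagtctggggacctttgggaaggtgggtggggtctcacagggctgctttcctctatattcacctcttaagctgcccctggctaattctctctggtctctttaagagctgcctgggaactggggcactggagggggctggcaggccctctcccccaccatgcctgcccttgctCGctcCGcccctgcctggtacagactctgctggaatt
The Emid1 window (chr11:5152231-5152480, minus strand) held 31 CG dinucleotides at a GC content of 77.6%, and the Sema4a window (chr3:88461183-88461432, minus strand) held 2 at 59.6%. Windows at other start sites differed from these, with 6 CG dinucleotides in the other one of Emid1 and 3, 13 and 6 in the others of Sema4a, so the numbers belong to a start site and not to the gene. Over all 300-base windows of the 95 genes the median GC content was 59.2%, against 60.7% for the rows at that level, so the promoters of the set did not have a higher median GC content than the rest.

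The 95 genes were expressed well enough to be counted in each library, with a lowest single count of 15, and all passed the expression filter of the count model. Their difference between KO and WT, in log2 CPM from edgeR's quasi-likelihood fit, ran from 0.20 to 1.63 with a median of 0.45, while the median of all 13692 genes tested was 0.02. It was at least 1, a doubling, in 9 genes and under 0.5 in 54. The rule used this contrast, and 27 of the 95 were called higher in it at an adjusted p under 0.05, where 0.606% of all genes tested were and 1.5% were called in either direction. Choosing the genes by this contrast fixed that excess, so the count is no evidence of enrichment. The rule is not symmetric in its yield: 0.907% of the 11031 rows were higher in every KO library before symbols were left out, and 1.81% (200 rows) were lower in every KO library.

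**Figure D1:**
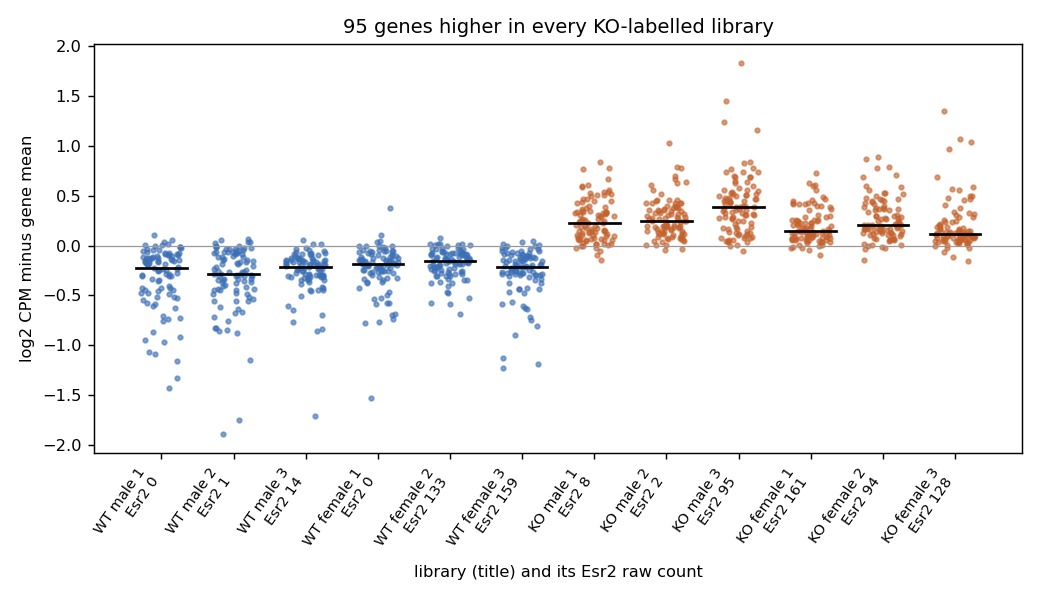
Each point is 1 of the 95 genes, as its log2 CPM minus its own mean over the 12 libraries; the bar is the median of a library, and the Esr2 count is under its name. The KO medians run from 0.12 to 0.38 and the WT medians from -0.29 to -0.15, a separation that the rule required, and Esr2 counts are high and low on both sides.

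At the edge of the rule the groups nearly touched. Just inside the rule, Yipf3, a Golgi membrane protein, had 102.5 CPM in its highest WT library and 102.5 CPM in its lowest KO library, and Nek8 had 23.01 and 23.02 CPM. Just outside it, Aspscr1 had 134.2 CPM in its highest WT library and 134.1 CPM in its lowest KO library, and Ccdc88b had 168.9 and 168.7 CPM. At the level minimum, Nenf entered with a mean of 1.13 log2 CPM and Tstd1, at 0.92, did not. Within the KO group the set was not even across libraries: the median deviation of the 95 genes from their own means was 0.38 log2 CPM in KO male 3, which also had the fewest counts, and 0.12 to 0.25 in the other 5 KO libraries. In the WT libraries it ran from -0.29 to -0.15.

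Genes of T-cell homing, surface and signalling made up 10 of the 69 genes that could be given a role, and all roles were assigned after the genes were known. S1pr1, the sphingosine receptor that lets T cells leave lymph nodes, ranged from 252 to 283 CPM in the 6 WT libraries (median 263) and from 304 to 476 CPM in the 6 KO libraries (median 354). The groups do not overlap, as the rule requires, and the difference was 0.51 (SE 0.12) on the log2 scale. Sema4a, a semaphorin of immune cells that acts on T cells, ranged from 22.1 to 52.1 CPM in the 6 WT libraries (median 30.6) and from 57.3 to 99.5 CPM in the 6 KO libraries (median 68.2), a difference of 1.14 (SE 0.20) and the largest of these 10. Flt3l, the growth factor of dendritic cell precursors, had 93.00 ± 20.2 CPM in KO and 59.7 ± 7.63 in WT (mean ± SD, n = 6 each). Cd5, which dampens T-cell receptor signals, had 773 ± 77.4 CPM in KO and 609.5 ± 41.3 in WT. Selplg, which encodes the P-selectin ligand PSGL-1, had 464 ± 33.5 CPM in KO and 374 ± 19.8 in WT, the smallest difference of the 10 at 0.32. Also in this group were the calcium channel subunit Orai1 (0.44), the cytokine Clcf1 (0.58), the membrane protein Itm2a (0.39) and the receptor Gpr146 (0.40).

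**Figure D2:**
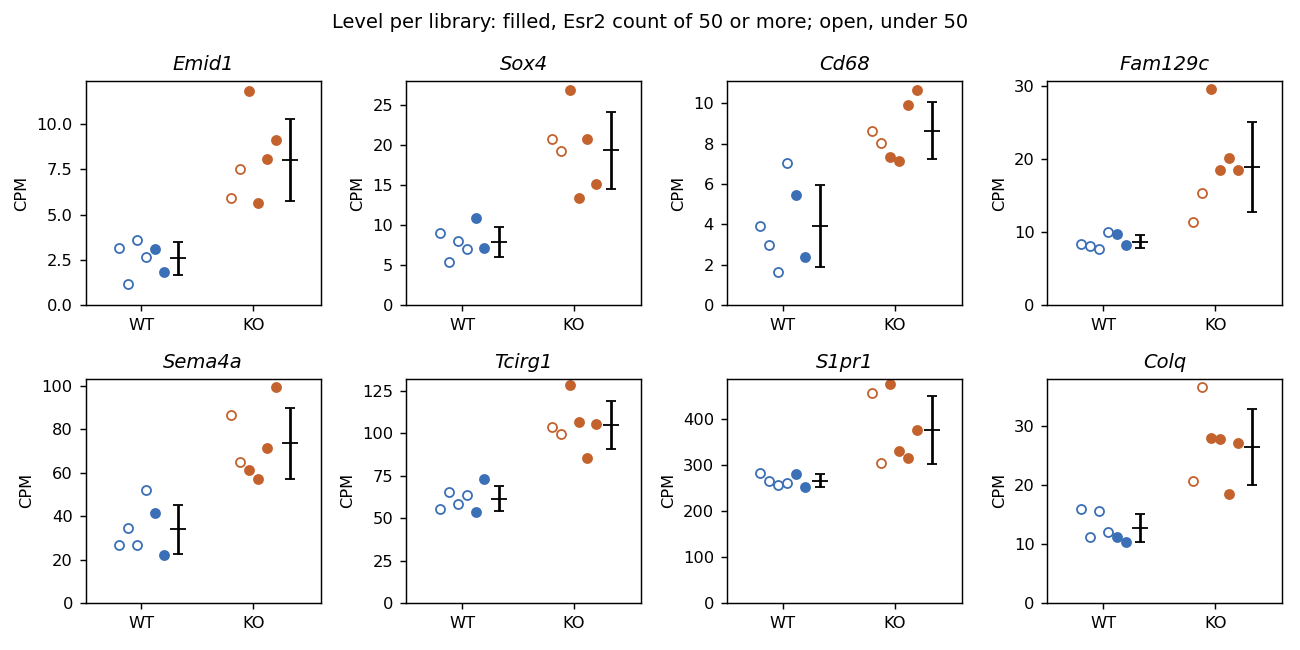
CPM of 8 of the genes, 1 point per library, by titled genotype, with the mean and SD of the 6 libraries beside them; filled points have an Esr2 count of 50 or more and open points fewer. No WT library reaches the lowest KO library in any panel, as for Emid1 with at most 3.58 CPM in WT and at least 5.67 CPM in KO.

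Regulators of small GTPases, which steer the cytoskeleton and membrane traffic of migrating lymphocytes, formed a second group of 5. Arhgef1, which activates small GTPases in lymphocytes, had 2243 ± 325 CPM in KO and 1543 ± 269 in WT, a difference of 0.56 (SE 0.13). Acap1, which switches off Arf6 on endosomes, had 818 ± 84.5 CPM in KO and 601 ± 19.5 in WT, and Arhgap4, a GTPase inactivator, had 503 ± 30.04 CPM in KO and 376 ± 35.7 in WT. The others were Acap3 (0.48) and the mitochondrial GTPase Rhot2 (0.27). Another 5 genes belong to nutrient and kinase signalling: Nprl3 (0.41) and Wdr24 (0.28) act in the GATOR complexes upstream of mTORC1, Telo2 (0.41) stabilises mTOR and related kinases, Dvl1 (0.53) relays Wnt signals and Crtc2 (0.30) is a coactivator of CREB. All 10 of these differences were under 1.

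Secreted and matrix proteins included 7 genes and the largest difference of the set. Emid1, a secreted protein with collagen-like stretches, ranged from 1.17 to 3.58 CPM in the 6 WT libraries (median 2.91) and from 5.67 to 11.9 CPM in the 6 KO libraries (median 7.80). All 6 KO libraries lay above all WT libraries, with KO male 3 highest, and the difference was 1.63 (SE 0.32). Colq, the collagen tail of acetylcholinesterase, ranged from 10.3 to 15.9 CPM in the 6 WT libraries (median 11.6) and from 18.5 to 36.7 CPM in the 6 KO libraries (median 27.4), a difference of 1.08 (SE 0.18). Efemp2, a protein of elastic fibres, ranged from 1.03 to 3.53 CPM in the 6 WT libraries (median 2.84) and from 3.94 to 6.21 CPM in the 6 KO libraries (median 5.04), a difference of 0.96 (SE 0.31). Emid1 and Efemp2 rest on few counts, 17 to 124 per library for Emid1 and 15 to 74 for Efemp2. Other genes of the set do too, such as Nenf (19 to 43), Cd68 (26 to 119), Snord35b (18 to 74), Syce2 (21 to 48) and Slc7a7 (31 to 144). The matrix protease family member Adamts10 differed by 0.69, the lectin Lgals4 by 0.66, the secreted factor Nenf by 0.54 and the protease inhibitor Spint2 by 0.45.

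Lysosomal genes numbered 6. Cd68, a lysosomal glycoprotein used as a macrophage marker, ranged from 1.66 to 7.06 CPM in the 6 WT libraries (median 3.44) and from 7.16 to 10.7 CPM in the 6 KO libraries (median 8.34), a difference of 1.20 (SE 0.29). Tcirg1, a subunit of the proton pump that acidifies lysosomes, ranged from 53.4 to 73.2 CPM in the 6 WT libraries (median 60.9) and from 85.6 to 128 CPM in the 6 KO libraries (median 105), a difference of 0.78 (SE 0.12). Neither gene had a WT library inside the KO range, although WT female 1, at 7.06 CPM for Cd68, lay just under the lowest KO library. Atp6v0b, of the same pump, differed by 0.49, the organelle trafficking subunit Bloc1s2 by 0.39 and the peptidase Dpp7 by 0.37.

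Sox4, a transcription factor of lymphocyte development, led the 12 genes of transcription, chromatin and telomeres. It ranged from 5.44 to 10.9 CPM in the 6 WT libraries (median 7.56) and from 13.3 to 26.9 CPM in the 6 KO libraries (median 19.9), a difference of 1.28 (SE 0.20). The other 11 differed by 0.27 to 0.58. Among them Maz (0.58), Hsf1, the heat shock factor (0.33), Zbtb48 (0.33) and Nr1h2, the liver X receptor beta (0.34), are DNA-binding factors, and Gps2 (0.27) and Irf2bp1 (0.41) repress transcription. Hdac10 (0.44) is a deacetylase, Mau2 (0.47) loads cohesin, Brf1 (0.38) serves RNA polymerase III, Akap8l (0.40) is a nuclear anchoring protein and Tinf2 (0.27) protects telomeres.

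The endoplasmic reticulum and Golgi held 8 genes. Among them were the ubiquitin ligase Syvn1 of protein quality control (0.45), Ncln (0.44), the mannosyltransferase Alg3 (0.40), Tmem111, now Emc3 (0.33), Bcap31 (0.33), Yipf3 (0.30) and Zfyve27 (0.28). Bcap31, an export receptor, had 290.2 ± 29.2 CPM in KO and 233 ± 11.97 in WT.

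Lipid and small-molecule metabolism held 10 genes. Slc7a7, a transporter of cationic amino acids, ranged from 1.82 to 3.58 CPM in the 6 WT libraries (median 2.99) and from 3.60 to 13.8 CPM in the 6 KO libraries (median 4.57), a difference of 1.03 (SE 0.35). KO male 3 stood far above the other KO libraries for this gene, and without it the difference was 0.58. The phospholipase Pla2g4b differed by 0.80, the amine oxidase Aoc2 by 0.74, the heme enzyme Ppox by 0.57, the fructokinase Khk by 0.50 and Gramd1a, a cholesterol transporter, by 0.47. Mmab of cobalamin metabolism (0.44), the uridine kinase Uck1 (0.38), the ceramide synthase Lass2, now Cers2 (0.35), and the fatty acid elongase Elovl1 (0.34) completed it.

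Centrosome and cilium genes numbered 6 and differed by 0.53 to 1.02. Ccdc164, now Drc1, a part of the nexin-dynein regulatory complex of motile cilia, ranged from 2.62 to 4.33 CPM in the 6 WT libraries (median 3.03) and from 4.64 to 7.17 CPM in the 6 KO libraries (median 6.81), a difference of 1.02 (SE 0.25). The dynein chain Wdr34 (0.72), the centriolar satellite protein Azi1, now Cep131 (0.72), the spindle protein Haus5 (0.59), the ciliary kinase Nek8 (0.58) and Lrrc45 (0.53) had smaller differences.

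A role was not assigned to the other 26 genes. Fam129c, now Niban3, a gene known from B cells, ranged from 7.75 to 10.02 CPM in the 6 WT libraries (median 8.35) and from 11.4 to 29.6 CPM in the 6 KO libraries (median 18.5), a difference of 1.13 (SE 0.22) that fell to 0.88 without KO male 3. Snord35b, a small nucleolar RNA gene, ranged from 1.35 to 2.73 CPM in the 6 WT libraries (median 1.77) and from 2.91 to 6.63 CPM in the 6 KO libraries (median 3.48), a difference of 1.09 (SE 0.34). The annotated Snord35b lies wholly within exons of other genes, so its reads cannot be told from theirs. Ppp1r37 (0.84), Zdhhc1 (0.77), Phyhd1 (0.73), Syce2 (0.72) and Fam193b (0.64) followed, and Tmc6 had 332 ± 31.3 CPM in KO and 262 ± 18.6 in WT. The library kit does not mark strand, and at least 20% of the exon length overlapped exons of another gene in 13 of the 92 genes with a transcript model (14.1%), against 8.10% of all rows at that level. Besides Snord35b, the share was 66.5% for Pla2g4b, 56.5% for Haus5, 54.6% for Sox4, 47.0% for Phyhd1, 43.1% for Abhd11 and 36.1% for Arhgap4, whose counts are uncertain to that extent. The 92 genes placed by RefSeq lay on 19 chromosomes. Chromosome 7 held 12 (1.46% of its 820 rows at that level), chromosome 11 held 11 (1.19% of 925) and X held 3 (0.87% of 345). Chromosome 12, that of Esr2, held 1 (0.27% of 367).

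What the rule did not use, but the genes shared, was the base composition of their transcripts. The median GC content was 56.4% (quartiles 53.2% and 58.5%) over the longest transcripts of 92 of the 95 genes, 49.9% (45.2% and 54.7%) over 10792 rows at that level, and 42.3% (40.2% and 45.0%) over 195 of the 200 rows lower in every KO library. Of the 92 genes, 82 (89.1%) lay above the overall median, and of the 195 lower rows 14 (7.18%). In 4 equal bins of rows from low to high GC content, the set held 3, 7, 23 and 59 genes and the lower rows 150, 31, 12 and 2. Median transcript length was 2477 bases in the set, 3062 over all and 3381 in the lower rows.

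GC content also separated the libraries across all rows. The slope of a row's log2 deviation on GC content, per 10 percentage points, was between -0.147 and -0.0886 in the 6 WT libraries and between 0.0014 and 0.256 in the 6 KO libraries, without overlap. The part of the GC trend in the differences of the 95 genes was not tested. In an alternative chosen after seeing the data, each library's trend along GC content was removed. The median difference of the 92 genes then went from 0.44 to 0.33 on the log2 scale. Of them, 35 still lay higher in every KO library, against 56 of all 10792 rows. With the trend along transcript length removed as well, the median was 0.34 and all 92 differences stayed positive. The rule was still met by 26 of the 92, against 58 of all 10792 rows. The genes were chosen for this difference, so the positive signs and the larger share are no independent result. Such a correction takes away any difference that runs along GC content, whatever its source.

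**Figure D3:**
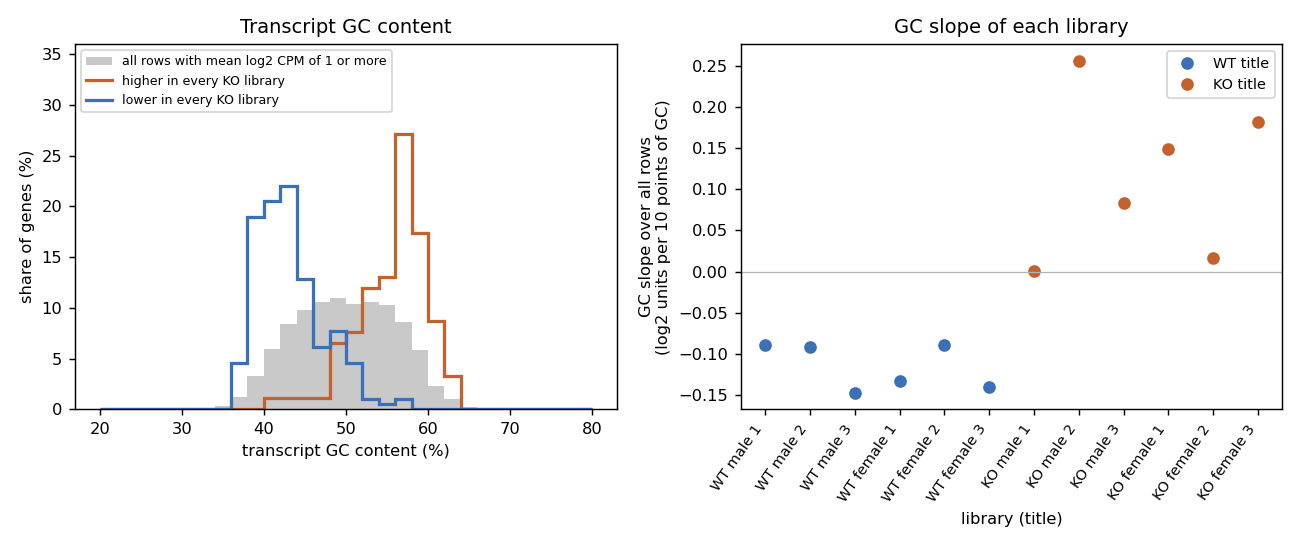
Left, share of genes (percent) by transcript GC content (percent) in the set, in the rows lower in every KO library and in all rows at or above the level minimum, with medians of 56.4%, 42.3% and 49.9%. Right, the GC slope over all rows (log2 units per 10 percentage points), 1 point per library, from -0.147 to -0.0886 in WT and from 0.0014 to 0.256 in KO.

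**Figure D4:**
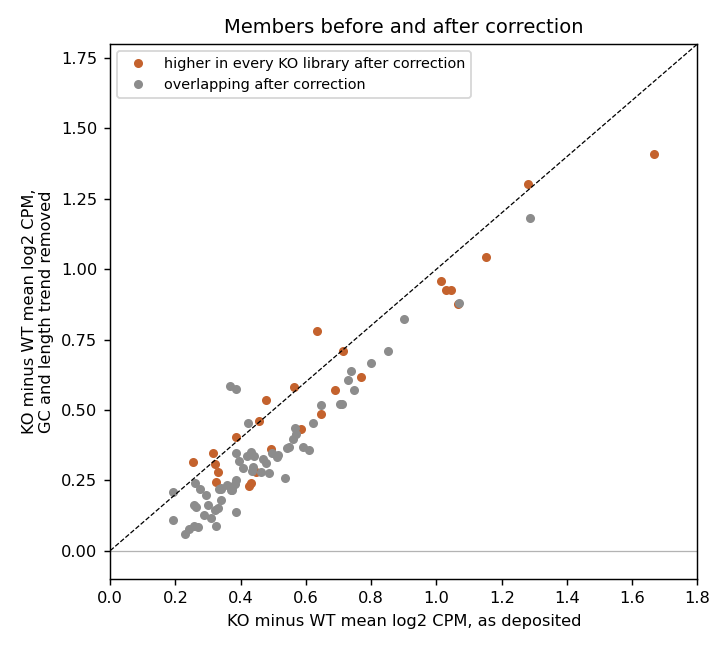
Difference between KO and WT means (log2 CPM) of each of the 92 genes as deposited (x axis) and after the trends along GC content and transcript length were removed (y axis); the dashed line marks equal values. All points lie above 0, the median falls from 0.44 to 0.34, and the 26 genes in orange still lie higher in every KO library. The genes were chosen for this difference, and 58 of all 10792 rows met the rule after correction.

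By role, the 26 genes held 5 of the 7 secreted and matrix genes (Emid1, Colq, Efemp2, Adamts10 and Spint2), 4 of the 10 T-cell surface genes (Sema4a, S1pr1, Clcf1 and Orai1), 3 of the 8 endoplasmic reticulum and Golgi genes (Ncln, Tmem111 and Bcap31), and 0 of the 10 GTPase and nutrient signalling genes. Sox4, Tcirg1, Fam129c, Mau2, Bloc1s2, Lass2, Elovl1 and Ccdc164 were also among them. Emid1 differed by 1.67 before and 1.41 after both corrections, Sox4 by 1.28 and 1.30, and Sema4a by 1.15 and 1.04. These are differences of mean log2 CPM and not of the fitted model. Cd68 went from 1.29 to 1.18 and did not meet the rule after correction.

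The cell source was described with marker lists of 18 cell types or states, chosen with earlier results of these data known. Of the 95 genes, 5 stood in a list. The share of all rows that did so was not counted, so this number is not read as low or high. Among these 5 were S1pr1 (resting T cells), Cd68 (macrophages and monocytes), Sox4 (thymocytes) and Lgals4 (epithelium). None was a B-cell, plasma cell, dendritic cell, neutrophil, CD8 or NK, mast cell, stromal, erythroid, Treg core, effector Treg, cell cycle, estrogen, interferon or stress gene of those lists. The names and prefixes left out by the rule barred some genes of these lists, such as Cd79a, Cd79b and Cd74. Of the genes so barred in these lists, only Cd37, a B-cell gene, met the separation rule. In bulk samples, more cells of a type and more RNA per cell cannot be told apart.

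Markers of other cells nevertheless moved with the titles. The summed level of the 30 B-cell genes was 822 to 1265 CPM in KO and 596 to 884 CPM in WT. Of the 30 tested, 11 were called higher and 28 were positive (median difference 1.61). From 0 to 1 of the genes were at 0 counts in a KO library and 0 to 5 in a WT library. These 30 include Cd37, which met the separation rule and was left out by symbol. An alternative chosen after seeing the data left it out. The 29 others summed to 530 to 884 CPM in KO and 379 to 658 CPM in WT, and 10 were called higher. The 26 dendritic cell genes summed to 1384 to 2484 CPM in KO and 878 to 1624 CPM in WT, with 3 of 22 tested called higher and 19 positive (median 0.44). The 27 macrophage and monocyte genes other than Cd68 summed to 844 to 1225 CPM in KO and 796 to 1227 CPM in WT, with 1 of 27 called higher and 1 lower, and 22 positive (median 0.63). The 15 neutrophil genes were scarce, at 18.2 to 83.3 CPM in KO and 9.51 to 20.8 CPM in WT, with 4 of 10 tested called higher and 9 positive (median 4.09), and Ly6g at 0 in every WT library. The ranges of these 4 sums overlapped between the titles, and the part of other cells in the 95 genes was not tested beyond the slope on a B-cell score.

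Of the single most abundant markers outside the set, Cd37, a tetraspanin of B cells that T cells also carry, had 273 to 381 CPM in KO and 211 to 237 CPM in WT, and met the separation rule. Cd74, the invariant chain of antigen-presenting cells, had 519 to 1208 CPM in KO and 198 to 612 CPM in WT. Lyz2, a lysozyme of macrophages and neutrophils, had 102 to 268 CPM in KO and 12.4 to 239 CPM in WT. Only Cd37 separated the titles among these 3. Ralgps2 (B cell) averaged 106 CPM in KO and 113 in WT, Xbp1 (plasma cell) 390 and 381, Txndc5 (plasma cell) 156 and 114, Cd83 (dendritic cell) 264 and 292, and Ctss (macrophage) 398 and 376. The neutrophil genes Mmp9 and Itgam averaged 9.76 and 7.38 CPM in KO and 11.8 and 2.18 in WT. Nkg7 and Gzmb (CD8 and NK) averaged 98.8 and 20.7 CPM in KO and 77.7 and 16.8 in WT, Cd1d1 and Ccr9 (thymocyte) 94.1 and 49.1 against 100.3 and 46.8, and Pecam1 and Cxcl13 (stromal and endothelial) 133 and 6.99 against 106 and 0.567. Kit and Cpa3 (mast cell) averaged 15.1 and 4.08 CPM in KO and 21.1 and 2.01 in WT, Car2 and Itga2b (erythroid and platelet) 5.62 and 1.797 against 9.69 and 1.46, and Epcam and Vil1 (epithelial) 32.8 and 1.17 against 34.2 and 0.734. These most abundant markers need not stand for their lists. Ralgps2 and Mmp9 averaged lower in KO, while 28 of 30 B-cell genes and 9 of 10 tested neutrophil genes had positive differences.

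The sums of the remaining lists of other cell types overlapped as well. Plasma cell genes summed to 738 to 1019 CPM in KO and 638 to 755 CPM in WT, with 1 of 9 tested called higher and 1 lower, and 7 positive (median 0.54). CD8 and NK genes summed to 183 to 266 CPM in KO and 126 to 213 CPM in WT (0 of 15 called, 13 positive, median 0.46), and thymocyte genes other than Sox4 to 171 to 271 and 178 to 213 CPM (0 of 8 called, 7 positive, median 1.20). Stromal and endothelial genes summed to 140 to 200 and 95.2 to 142 CPM (1 of 10 called higher, 9 positive, median 1.43), mast cell and basophil genes to 13.9 to 25.8 and 17.6 to 33.4 CPM (0 of 2 called, 1 positive, median 0.36), erythroid and platelet genes to 7.37 to 13.2 and 9.79 to 17.6 CPM (0 of 4 called, 3 positive, median 0.49), and epithelial genes other than Lgals4 to 22.1 to 61.1 and 24.7 to 41.9 CPM (0 of 3 called, 1 positive, median -0.047).

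T-cell genes gave the one list whose sums did not overlap. The 16 resting T-cell genes outside the set summed to 3603 to 4198 CPM in KO and 3085 to 3479 CPM in WT, 15 of 16 were positive (median 0.29) and 3 were called higher. These 16 include Lef1 and Ly6c1, which met the separation rule and were left out by symbol. In an alternative chosen after seeing the data, the 14 genes without them summed to 3328 to 3863 CPM in KO and 2909 to 3269 CPM in WT, still without overlap, with 1 of 14 called higher. Treg core genes summed to 6453 to 9408 CPM in KO and 7272 to 8721 CPM in WT, and effector Treg genes to 1896 to 2517 and 2138 to 2760 CPM, with 0 of 19 and 0 of 14 called (medians -0.070 and -0.17). Cell cycle genes (median difference 0.19, 0 of 28 called), interferon response genes (0.23, 0 of 14), stress genes (0.087, 0 of 18) and estrogen receptors and targets (0.0079, 1 of 18 higher) had overlapping sums.

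Variation of B-cell RNA among libraries of the same title gave a measure that the rule did not use directly. The rule does limit the spread of a gene inside each title. Genes that follow the score, Esr2 or titled sex strongly would tend to overlap between the titles and fail it. A count of 0 of the 95 in such fits was therefore partly fixed by the choice of genes. The score was the mean log2 CPM of the 30 B-cell genes, Cd37 among them. It ran from 0.55 to 3.71 in WT and from 3.30 to 4.29 in KO, with WT female 1 inside the KO range. In a model with the titled genotype and the score, edgeR's quasi-likelihood test with Benjamini-Hochberg adjustment called 53 of 13692 genes (0.387%), 11 of them genes of the score itself, and 0 of the 95. At an unadjusted p under 0.05 it gave 3 of the 95, against 3.33% of all genes. The median slope of the 95 was 0.014 log2 units per unit of score, and 0.000085 over all genes. Cd68 had the steepest, 0.54 (SE 0.13, unadjusted p = 0.00068, adjusted p = 0.122), and DESeq2 called it at an adjusted p of 0.0056. Sema4a had a slope of 0.30 (SE 0.089, edgeR unadjusted p = 0.0044, adjusted p = 0.419). With Cd68 and LOC100861649 it made up the 3 genes at an unadjusted p under 0.05. Fam129c had a slope of 0.14 (SE 0.12, edgeR adjusted p = 0.9996).

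Whether the genes followed Esr2 was asked of its raw count, 50 or more in 6 libraries (WT female 2 and 3, KO male 3 and KO female 1 to 3) and under 50 in the other 6. Inside each title this split runs close to titled sex. Both WT libraries at 50 or more are titled female, and both KO libraries under 50 are titled male. An order by Esr2 and an order by titled sex can therefore not be fully told apart. None of the 95 could separate these libraries over all 12, since libraries of either kind stand under both titles, and 0.0453% of all rows did so. Within the KO title, 2 of the 95, Fam129c among them, were higher in all 4 libraries with Esr2 than in both without, where 2.94% of rows at that level were. Fam129c had 11.4 and 15.4 CPM in the KO libraries with little Esr2 and 29.6, 18.5, 20.2 and 18.5 CPM in the others. In WT the 2 libraries with Esr2 had 9.73 and 8.27 CPM of Fam129c, within the range of the WT libraries without it, so that order was not repeated.

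The opposite order in KO, lower in all 4 libraries with Esr2, was found in 6 of the 95 (Hsf1, Wdr24, Bloc1s2, Zbtb48, LOC100861649 and Dalrd3), where 4.63% of rows had it. In WT, 5 genes were higher in both libraries with Esr2 than in the other 4 (3110056O03Rik, Trim11, Pla2g4b, Dvl1 and Zdhhc1; 5.29% of rows) and 4 were lower (Colq, Yipf3, Atp6v0b and Irf2bp1; 5.38% of rows). No gene stood in the lists of both titles, but lists this short would rarely share one. The shares of the 95 were 2.11% higher and 6.32% lower in KO, and 5.26% higher and 4.21% lower in WT. All were near the shares of all rows. In a model with the titled genotype and the log2 CPM of Esr2, edgeR called 0 of the 95 and 0 of 13691 genes at an adjusted p under 0.05. At an unadjusted p under 0.05 it gave 1 of the 95, the CREB coactivator Crtc2, against 3.1% of all genes. The slope of Crtc2 was 0.036 (SE 0.016, edgeR adjusted p = 0.996). Slopes of the 95 ran from -0.036 to 0.065 log2 units per log2 unit of Esr2, with 56 positive. The DESeq2 fit called 0 of the 95 here too.

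Titled sex was another factor that the rule did not use directly, and it runs close to the Esr2 split inside each title. Female and male WT libraries differed by a median of 0.080 log2 units over the 95 genes, with 59 positive (62.1%, against 50.7% of all genes), and KO libraries by -0.093, with 24 positive (25.3% against 49.4%). EdgeR called 0 of the 95 and 0 of 13692 genes in either title at an adjusted p under 0.05. An unadjusted p under 0.05 was reached by 3 of the 95 in WT (6.52% of all genes) and by 0 in KO (5.27%). DESeq2 called 0 of the 95 in either title, with 30 genes in WT and 0 in KO over the whole table. Counts over all genes depended on single libraries, with 38 called in WT without WT female 3 and 324 in KO without KO male 2, and 0 of the 95 in either fit. Pla2g4b had the smallest p in WT, with a female minus male difference of 0.65 (SE 0.24, adjusted p = 0.718), and -0.29 (SE 0.24) in KO. With Acap3 and Ppp1r37 it was chosen after its values were seen.

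The difference of the KO effect between titled females and males had a median of -0.12 over the 95 genes, with 22 positive (23.2% against 49.3% of all genes tested), and 0 of the 95 and 0 of all genes were called by edgeR (DESeq2 0 and 3). Pla2g4b (-0.95, SE 0.34, adjusted p = 0.900) and Acap3 (-0.49, SE 0.22, adjusted p = 0.900) reached an unadjusted p under 0.05, as did 4.81% of all genes. KO male 3 had the highest values of the KO libraries in 45 genes and KO female 3 the lowest in 29, so the KO male and KO female means rest on these libraries to that extent. In 4 libraries the sex-linked transcripts went against the titled sex, and leaving them out keeps 3 male and 2 female libraries of WT but only 1 male and 2 female libraries of KO. The fit without them called 0 of the 95 in the 3 sex contrasts, but the lone KO male library is assumed there to vary like the others.

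**Figure D5:**
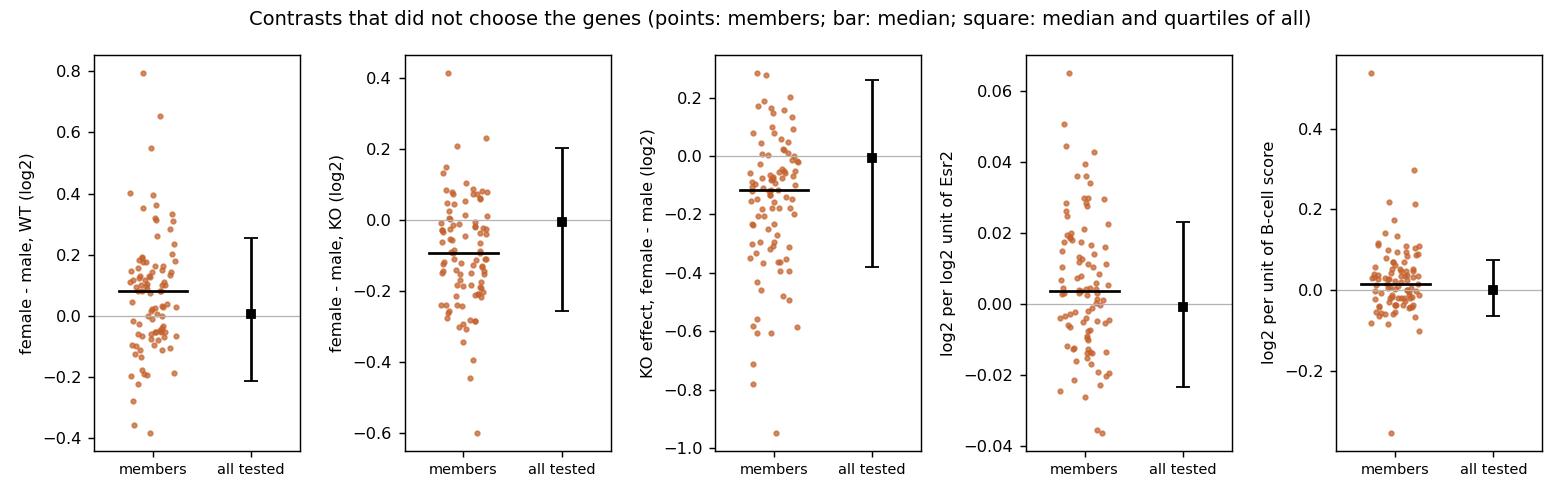
Values of the 95 genes (points, with the median as a bar) in the 5 contrasts or slopes that the rule did not use, beside the median and quartiles of all tested genes (square and bar), in log2 units or log2 units per unit of covariate. The genes sit around a median of 0.080 for sex in WT and -0.093 in KO, and none passed an adjusted p of 0.05. The rule limits the spread inside a title, so genes with strong slopes or sex differences tended to be left out.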

How the data were processed

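RNA-seq of 12 sorted Treg libraries, 3 per titled group, was analysed. NucleoSpin XS, SMART-Seq v4 and Nextera XT were used for RNA, cDNA and libraries, per the labels' protocols, and do not keep strand. Reads were handled with HISAT2 (2.0.5), Subread, featureCounts (1.5.0-p2) and edgeR on GRCm38, according to the submitters' processing notes. The authors deposited raw counts per gene symbol (26609 rows) and log2 CPM values (24584 rows). The deposited log2 values were recomputed from the counts with TMM scaling and a prior count of 0.25, and differed by at most 5e-14.

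The 95 genes were found on the deposited log2 table. Members and lists were chosen with earlier results of these data known. EdgeR 4.0.16 (R 4.3.3) quasi-likelihood fits with 4 group means, filterByExpr and TMM tested 13692 genes, with Benjamini-Hochberg adjustment over all of them, and the biological coefficient of variation was 29.3%. Slope fits held the titled genotype and Esr2 log2 CPM or the B-cell score. DESeq2 1.42.0, other scalings and filters, libraries left out and a replicate block were alternatives. Genes named with values were the list members, the 25 with the largest difference, the 10 most abundant and the 3 on each side of the rule's limit. Other genes are named by role, and a few genes of the set are not reported here. GC content and exon overlap came from the longest GENCODE M21 transcript, and trends used a loess span of 0.3. Scripts were tested on simulated data.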

Additional observations from a re-analysis of the deposited data

Results flagged for a closer look

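In groups of 6 libraries of one titled genotype, a library was marked when its gap to the nearest other library was too large a share of the group's range (Dixon's 95% critical value). Chance marks about 1 in 20 groups, 74 groups were checked, and genes of the set are not independent of each other. KO male 3, the library with the fewest counts, was the highest KO library at 13.8 CPM for Slc7a7 (next 5.20), 117 CPM for Fam193b (next 81.0), 394 CPM for Tmc6 (next 330) and 231 CPM for Ccdc88b (next 179), a gene just outside the rule. KO female 3 stood apart for Snord35b at 6.63 CPM (next 3.92). Among the WT libraries, WT male 1 was lowest for Fam193b at 29.5 CPM (next 55.2) and WT female 2 for Dalrd3 at 60.4 CPM (next 76.8).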

How the results depend on the processing

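The count of genes meeting the rule was 352 without the 4 libraries whose sex-linked transcripts went against their titles (94 of the 95 among them, fewer libraries being easier to separate), 108 to 156 when each library was left out, 56 with the GC trend removed and 58 with the GC and length trends removed, both chosen after seeing the data. The number of the 95 called stayed at 0 in every leave-one-out fit of the 5 contrasts and slopes, and DESeq2 called 1, Cd68, for the B-cell slope. Genes called over the whole table moved more. DESeq2 called 30 for sex in WT, 3 for the difference of KO effects and 117 for the B-cell slope. With no expression filter 191, 63 and 106 genes were called for sex in WT, sex in KO and the difference of KO effects. Without the 4 libraries 5, 5 and 24 were called for sex in WT, sex in KO and the B-cell slope, with 1 KO male library left, which is assumed to vary like the other groups. The B-cell slope called 8 genes with 4 titled groups and 20 with a score of Cd79a and Cd79b, and an Esr2 term of 50 counts or more called 1. Leaving out each library gave 0 to 38 genes for sex in WT (38 without WT female 3), 0 to 324 for sex in KO (324 without KO male 2), 0 to 4 for the difference of KO effects (4 without KO male 2), 0 to 0 for the Esr2 slope and 9 to 65 for the B-cell slope (9 without WT female 1, 65 without KO male 3). The causes were not tested.

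Titles share numbers, but deviations of same-numbered libraries correlated from -0.34 to 0.11 over 18 pairs, with 1 over 0.1, so the numbers were not taken as a pairing. With a replicate block of these numbers, 0 of the 95 were called in all 5 fits, and over all genes 0 were called in 4 of them and 52 for the B-cell slope.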

Other observations

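After the trends along GC content and length were removed, 32 rows outside the 95 were higher in every KO library. Their median transcript GC content was 46.1%, against 53.3% for the 26 genes of the set that still met the rule. T-cell signalling genes were among them: Cd247, the zeta chain of the T-cell receptor complex, had 425.9 ± 52.6 CPM in KO and 343 ± 43.2 in WT (mean ± SD, n = 6 each), with a corrected difference of 0.47 on the log2 scale. Bach2, a repressor that holds T cells in a resting state, had 118 ± 12.1 CPM in KO and 97.0 ± 16.2 in WT, with a corrected difference of 0.31. Rapgef4, an exchange factor for Rap GTPases, had the largest corrected difference of the 32, at 1.46, and 11.7 ± 3.96 CPM in KO against 4.77 ± 1.87 in WT. These genes were chosen by the same rule after the correction, and were named after their values were seen. They carry no test.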
